A study of Mus musculus with 32 samples.

Results

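The first hours of the response to IFN-γ were measured in YUMM3.3 cells, a mouse melanoma line with mutant Braf, as the difference between 4 wells given 20 ng/ml IFN-γ and 4 wells labelled NT, all collected at 4 hrs. NT is read here as untreated, and whether these wells received a vehicle is not given in the labels. A figure caption in the paper's supplement names an H2O control for the treatments at 12 hrs. These 8 wells were taken by their group labels and form 8 of the 32 samples of the series, and the comparison runs across all genes. The other wells at 4 hrs received 40 ng/ml Activin-A, either alone or together with IFN-γ, and the same 4 treatments were repeated at 12 hrs, with 4 wells in each group. All wells hold one established cell line seeded in 6-well plates, without other cells of a tumor, so that p-values measure the spread between wells and not between lines or animals. Transcripts were counted from their 3′ ends by BRB-seq, in which the cDNA of each well receives a barcode before the wells are pooled. In such bulk samples, a change in the RNA of each cell cannot be told apart from a change in the share of cells that make it.

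IFN-γ binds a receptor built from Ifngr1 and Ifngr2 and activates the kinases Jak1 and Jak2, which phosphorylate transcription factors of the STAT family. STAT dimers enter the nucleus and bind gamma-activated sites (GAS), and among the known early targets of the pathway is Irf1, itself a transcription factor that binds the interferon-stimulated response element (ISRE) of further genes. In many cell types this pathway is known to raise GTPases that act against intracellular pathogens, the machinery that presents peptides on MHC class I, chemokines that attract T cells and the checkpoint ligand PD-L1, and to be limited by Socs proteins.

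Total counts of the 8 wells lay between 697656 and 1187004 with a median of 1018558, and 3 counts, taken as the floor of detection in a well, corresponded to 2.53 to 4.30 CPM (counts scaled to the total of each well), a limit for counting error alone. The summed marker levels that follow are on this scale, and the CPM of single genes are also TMM-normalized, which corrects the totals for differences in composition between wells. Of 16 marker genes of other cell types, 5 were in the table. Their summed level was 24.1 to 35.6 CPM in untreated wells and 17.2 to 43.0 CPM with IFN-γ, and the pan-leukocyte gene Ptprc had 0 to 4 counts in any well. Of 14 melanocyte lineage genes, 13 were in the table, with a summed level of 504 to 609 CPM untreated and 502 to 554 CPM with IFN-γ. On the first principal component of the 16 wells at 4 hrs, which held 70.2% of the variance of the 500 most variable genes, all 8 wells with IFN-γ lay between 15.4 and 17.03 and all 8 wells without it between -17.1 and -15.1.

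Within 4 hrs, IFN-γ raised many genes strongly and lowered few, and mildly. Of 9137 genes tested, edgeR's quasi-likelihood test called 462 at an adjusted p under 0.05 (5.06%), of which 392 were higher (4.29%) and 70 lower (0.766%). DESeq2's Wald test called 332 higher and 40 lower, and edgeR called 31 lower at an adjusted p under 0.01 and 33 with an absolute log2FC of at least 0.5. A fit of the 8 wells alone called 404 higher and 99 lower, and the fit without replicate 1 of the Activin-A wells 415 higher and 102 lower. The log2 fold change (log2FC) was at least 1 in 199 of the genes called higher (2.18% of all tested), at least 2 in 90, at least 3 in 42 and at least 4 in 24. With the 14 genes that had at most 3 counts in every untreated well set to their fold against a floor of 3 counts per well, these numbers were 199, 87, 38 and 15. Of the genes called lower, Notum alone fell by at least 2-fold (0.0109%). The median log2FC was 1.01 among the genes called higher, -0.49 among those called lower and -0.01 over all genes tested. In 367 of the 392 genes called higher and 62 of the 70 called lower, the 4 treated wells did not overlap the 4 untreated wells. Across all genes tested such a separation was seen in 6.34% toward higher and 3.04% toward lower values. The genes called higher by at least 2-fold took 0.607 ± 0.011% (SD, n = 4) of the counts in untreated wells and 2.94 ± 0.013% with IFN-γ.

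**Figure D1:**
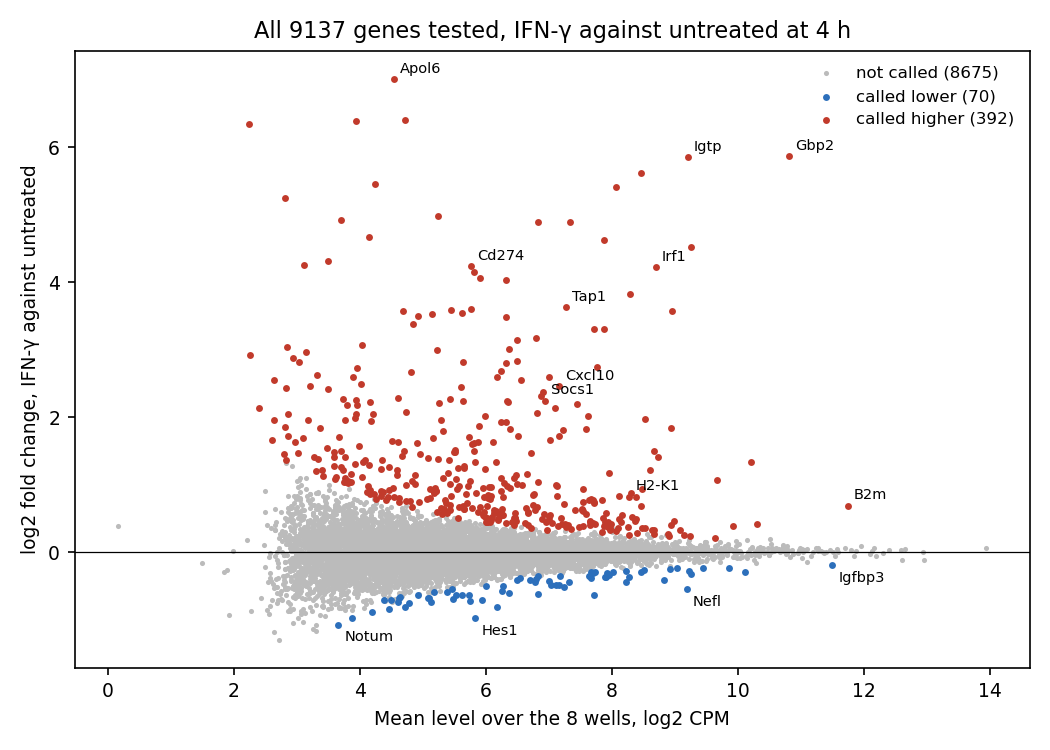
Each point is 1 of the 9137 genes tested, placed by its mean level over the 8 wells (x axis, log2 CPM) and by its log2 fold change with IFN-γ (y axis). Genes called higher (red) reach 5.86 in Gbp2, with fitted values above it only in genes whose untreated wells were near 0 counts, such as Apol6, while those called lower (blue) stay close to the line and reach -1.07 in Notum.

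The promoters of 7 genes are shown because these genes stand for the main groups described below: an early transcription factor (Irf1), both families of GTPases (Igtp, Gbp2), a feedback inhibitor (Socs1), a subunit of MHC class I (B2m) and a pair of related chemokines, of which Cxcl10 was called higher and Cxcl9 was not. Each sequence gives the 250 bases before the transcription start, 5′ to 3′ on the gene's strand, from RefSeq's promoter table for GRCm38.p6, which differs from the GRCm39 build named for the deposited counts. Capitals mark matches to the core of GAS, TTCNNNGAA, or of ISRE, a pair of GAAA with any 2 bases between them, on either strand. A match describes the letters and not a bound site, and no match says only that these letters are not in this window.
Irf1, chr11:53769764-53770013, plus strand: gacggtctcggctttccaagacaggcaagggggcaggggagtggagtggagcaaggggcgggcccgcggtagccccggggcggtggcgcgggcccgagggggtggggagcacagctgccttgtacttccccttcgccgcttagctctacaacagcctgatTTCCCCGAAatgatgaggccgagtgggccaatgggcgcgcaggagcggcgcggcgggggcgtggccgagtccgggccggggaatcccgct
Igtp, chr11:58199306-58199555, plus strand: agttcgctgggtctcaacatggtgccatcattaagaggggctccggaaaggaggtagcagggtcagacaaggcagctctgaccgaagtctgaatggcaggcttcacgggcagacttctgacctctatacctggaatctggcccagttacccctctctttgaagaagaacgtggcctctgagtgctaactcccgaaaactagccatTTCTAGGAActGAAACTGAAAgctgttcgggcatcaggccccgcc
Gbp2, chr3:142620413-142620662, plus strand: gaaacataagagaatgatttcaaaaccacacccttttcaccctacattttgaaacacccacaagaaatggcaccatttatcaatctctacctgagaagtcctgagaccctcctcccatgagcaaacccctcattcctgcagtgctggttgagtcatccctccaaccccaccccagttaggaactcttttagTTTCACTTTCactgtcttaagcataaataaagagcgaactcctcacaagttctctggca
Socs1, chr16:10785537-10785786, minus strand: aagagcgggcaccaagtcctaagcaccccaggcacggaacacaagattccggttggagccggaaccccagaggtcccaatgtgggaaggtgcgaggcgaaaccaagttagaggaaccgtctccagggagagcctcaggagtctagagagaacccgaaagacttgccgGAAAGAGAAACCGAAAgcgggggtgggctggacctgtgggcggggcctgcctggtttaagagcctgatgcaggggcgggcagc
Cxcl10, chr5:92348890-92349139, minus strand: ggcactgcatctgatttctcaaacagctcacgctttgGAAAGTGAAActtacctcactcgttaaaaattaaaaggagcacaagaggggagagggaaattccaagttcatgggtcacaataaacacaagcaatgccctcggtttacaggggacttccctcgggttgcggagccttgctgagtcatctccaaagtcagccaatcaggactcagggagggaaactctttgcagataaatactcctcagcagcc
B2m, chr2:122147437-122147686, plus strand: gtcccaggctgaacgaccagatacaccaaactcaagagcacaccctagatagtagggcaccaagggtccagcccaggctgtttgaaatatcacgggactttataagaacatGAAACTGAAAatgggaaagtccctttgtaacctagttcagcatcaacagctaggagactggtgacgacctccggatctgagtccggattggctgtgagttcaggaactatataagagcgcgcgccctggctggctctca
Cxcl9, chr5:92328080-92328329, minus strand: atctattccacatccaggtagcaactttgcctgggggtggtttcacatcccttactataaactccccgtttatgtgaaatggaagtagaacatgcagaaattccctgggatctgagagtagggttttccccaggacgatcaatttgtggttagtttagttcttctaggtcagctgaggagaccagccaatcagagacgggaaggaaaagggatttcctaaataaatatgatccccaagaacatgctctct
In these windows Irf1 held a GAS core whose first base lay 90 bases before the first of its 2 listed starts, whereas the window of the second start, not printed, held neither core. Igtp held a GAS core at 45 bases and an ISRE core at 34 bases before the start. Gbp2 held an ISRE core on the opposite strand at 59 bases, B2m one at 139 bases and Cxcl10 one at 213 bases, and the 2 ISRE cores of Socs1, at 83 and 77 bases, overlapped each other. Cxcl9 held neither.

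Over all genes called higher, 312 of 392 had a promoter in the table, here taken from 250 bases before to 50 after each start. The GAS core was found in 50 of them (16.03%) and the ISRE core in 63 (20.2%). Among the 152 with a promoter that rose by at least 2-fold, the shares were 19.1% (29 genes) and 31.6% (48 genes). Of all 7333 tested genes with a promoter, 7.99% held the GAS core and 3.80% the ISRE core. Counted by single promoters, the shares were 6.56% and 3.11% for tested genes and 12.6% and 15.8% for genes called higher. Over all 32851 listed promoters they were 8.30% and 3.44%. Of the 48 genes called lower that had a promoter, 2 held a GAS core and 1 an ISRE core. Genes called higher had 1.34 listed starts each, compared to 1.28 for all tested genes. The shares are a description, and no test was made of them.

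**Figure D2:**
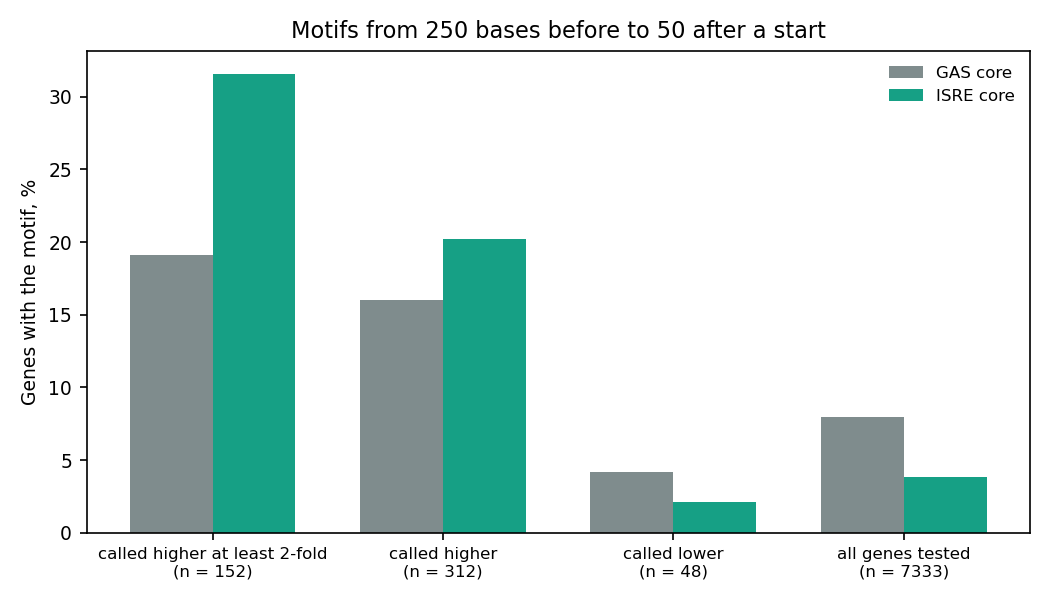
Bars give the percentage of genes whose promoter holds the GAS core (grey) or the ISRE core (green), for genes called higher by at least 2-fold, called higher, called lower and all genes tested, with the number of genes that have a promoter under each. The ISRE core stands at 31.6% in the first group and at 3.80% in all genes tested.

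Among the pathway's own components, Stat2 and Stat3 rose strongly, whereas receptor and kinase genes moved little. Of 12 tested genes for interferon receptors, JAK kinases and STAT factors, 4 were called higher and 1 lower, with a median log2FC of 0.06. The shares over all genes tested were 4.29% higher and 0.766% lower. Stat2, a factor of type I interferon signaling, rose from 14.8 ± 1.85 CPM (SD, n = 4 here and below) to 83.1 ± 16.8 CPM (log2FC of 2.45, SE 0.19, adjusted p = 6.73e-16), and Stat3, best known from IL-6 signaling, from 51.2 ± 5.56 to 224 ± 26.7 CPM (log2FC of 2.13, SE 0.12, adjusted p = 7.89e-22). Jak2 rose from 31.4 ± 6.37 to 49.8 ± 8.34 CPM (log2FC of 0.64, SE 0.17, adjusted p = 0.0114), a call that DESeq2's Wald test did not make (adjusted p = 0.0784) and that was lost without untreated replicate 2 or IFN-γ replicate 3 (adjusted p up to 0.101).

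Of the receptor chains, Ifngr2 was called lower and Ifngr1 was not. Ifngr1, the chain that binds the ligand, had 50.8, 61.4, 63.5 and 38.98 CPM in the untreated wells and 46.9, 60.3, 57.5 and 54.3 CPM with IFN-γ, and its wells overlapped (log2FC of 0.04, SE 0.15, adjusted p = 0.951). Ifngr2, the chain that brings in Jak2, had 144, 139.99, 155 and 148 CPM in the untreated wells and 125, 95.2, 115 and 107 CPM with IFN-γ. Every treated well lay below every untreated well (log2FC of -0.42, SE 0.11, adjusted p = 0.0117). The call was lost in DESeq2's Wald test (adjusted p = 0.0521) and without replicate 2 of the IFN-γ wells (adjusted p = 0.117). Jak1 overlapped as well, with means of 102 ± 12.7 CPM untreated and 102 ± 18.1 CPM with IFN-γ (log2FC of -0.03, SE 0.12, adjusted p = 0.9598).

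Among the interferon regulatory factors, 4 of 7 were called higher, with a median log2FC of 0.86, and of all genes tested 4.29% were. Irf1 (ENSMUSG00000018899), whose first listed promoter holds the GAS core shown above, stood at 41.2, 44.1, 42.7 and 40.98 CPM in the untreated wells and at 781, 789.7, 763 and 811 CPM with IFN-γ. No other gene of the list had as large a log2FC, and its wells lay close together in both groups (log2FC 4.22, SE 0.09, adjusted p = 3.22e-42). Irf9, the DNA-binding subunit of the complex formed in type I interferon signaling, rose from 27.9 ± 3.98 to 84.6 ± 10.9 CPM (log2FC of 1.62, SE 0.16, adjusted p = 1.53e-12), and Irf7, an amplifier of type I interferon genes, from 16.98 ± 2.17 to 54.6 ± 7.16 CPM (log2FC of 1.70, SE 0.19, adjusted p = 1.78e-10). Irf2, which shares binding sites with Irf1 and can oppose it, rose from 36.5 ± 8.09 to 66.6 ± 1.37 CPM (log2FC of 0.86, SE 0.16, adjusted p = 6.71e-05). Irf8, a factor of myeloid cells, had means of 64.7 ± 11.97 CPM untreated and 77.4 ± 8.56 CPM with IFN-γ, with overlapping wells (log2FC of 0.25, SE 0.13, adjusted p = 0.435).

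Of 17 genes that feed back on cytokine signaling, 3 were called higher and 1 lower, with a median log2FC of 0.16. Over all genes tested, 4.29% were called higher and 0.766% lower. Socs1 (ENSMUSG00000038037), the main inhibitor of JAK kinases in this pathway, stood at 43.8, 42.2, 39.4 and 43.97 CPM in the untreated wells and at 196, 200.04, 227 and 189 CPM with IFN-γ. All treated wells were above all untreated wells (log2FC of 2.24, SE 0.11, adjusted p = 1.24e-24). Socs3, an inhibitor linked to Stat3, rose from 36.3 ± 5.62 to 131 ± 15.5 CPM (log2FC of 1.82, SE 0.14, adjusted p = 7.09e-17), and Usp18, which restrains the type I interferon receptor, from 23.4 ± 6.499 to 61.6 ± 9.57 CPM (log2FC of 1.36, SE 0.18, adjusted p = 1.81e-08). Socs2, a feedback gene of growth hormone and Stat5 signaling, fell from 26.3 ± 1.72 to 15.6 ± 3.62 CPM (log2FC of -0.71, SE 0.22, adjusted p = 0.0449), and the call was lost in DESeq2's Wald test (adjusted p = 0.245) and in 7 of 8 fits that each left out 1 well (all but IFN-γ replicate 2, adjusted p up to 0.147). In other wells edgeR called Socs2 lower with IFN-γ, in those with Activin-A at 4 hrs (-1.01, adjusted p = 0.000504) and at 12 hrs (-1.45, adjusted p = 6.07e-06). Cish, another Stat5 target, had overlapping wells (log2FC of 0.51, SE 0.32, adjusted p = 0.5497).

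**Figure D3:**
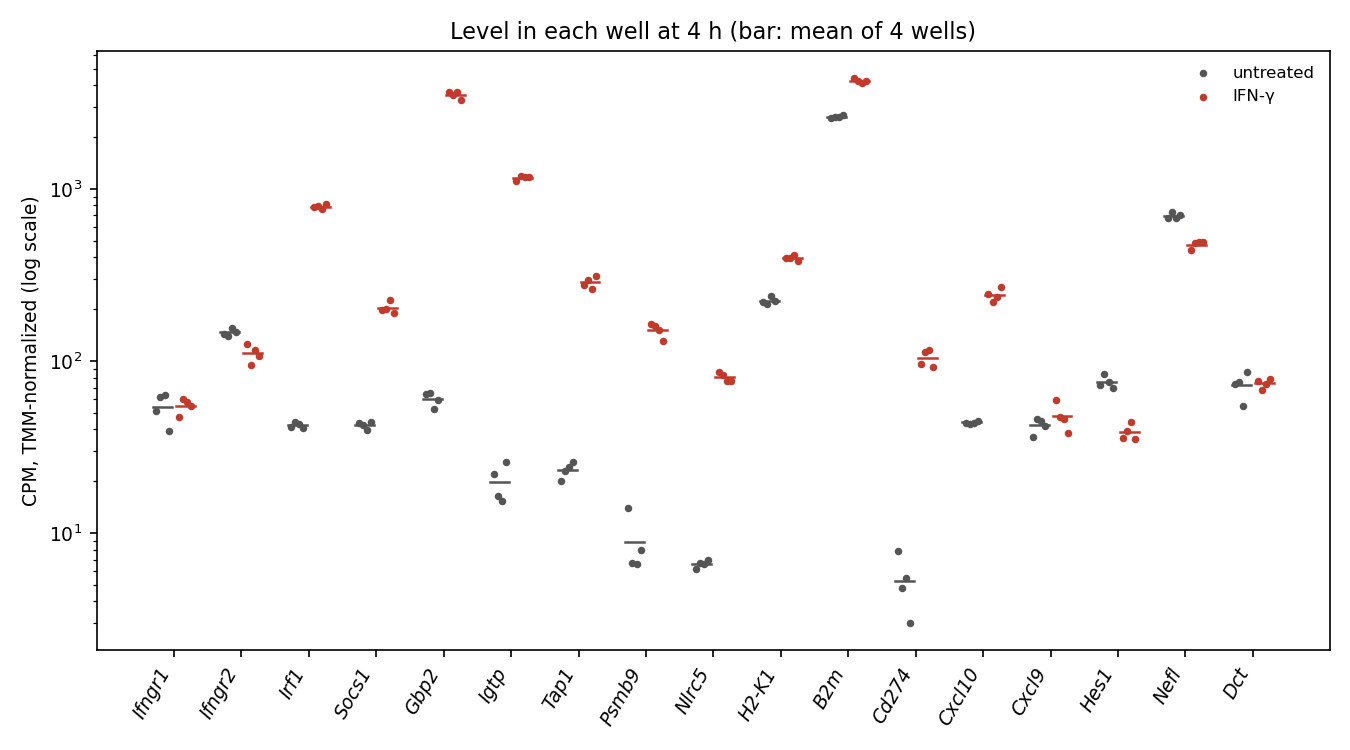
Points are the levels of 17 genes in the 4 untreated (grey) and 4 IFN-γ (red) wells on a log axis of TMM-normalized CPM, and bars are group means. Irf1, Gbp2 and Igtp separate by more than 10-fold, Ifngr2, H2-K1, B2m, Hes1 and Nefl by a smaller step, and Ifngr1, Cxcl9 and Dct overlap.

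By the medians of the lists, the steepest rises were in the large GTPases of cell-autonomous defense. Guanylate-binding proteins (GBPs) and immunity-related GTPases (IRGs) assemble on the membranes of vacuoles that hold pathogens. All 5 tested GBP genes and all 7 tested IRG genes were called higher, compared to 4.29% of all genes tested. Their median log2FC was 4.66 and 5.62, compared to -0.01 over all genes tested. Each list had 9 genes in the table, and those with too few counts were not tested. Of the tested ones, 2 GBP and 3 IRG genes had at most 3 counts in every untreated well. They passed the filter on low counts through wells with IFN-γ, so that the filter had a part in these counts. Gbp2 (ENSMUSG00000028270) stood at 63.9, 65.2, 52.5 and 58.96 CPM in the untreated wells and at 3628, 3524, 3648 and 3302 CPM with IFN-γ. Its wells lay close together in each group, and the change was 58.6-fold in the mean (log2FC of 5.86, SE 0.08, adjusted p = 6.90e-53). Igtp (ENSMUSG00000078853), an IRG also called Irgm3, stood at 21.9, 16.3, 15.3 and 25.98 CPM in the untreated wells and at 1104, 1192, 1174 and 1170.2 CPM with IFN-γ, with similarly tight wells (log2FC of 5.85, SE 0.11, adjusted p = 1.27e-45). Iigp1 rose from 13.9 ± 3.63 to 689.6 ± 13.2 CPM (log2FC of 5.62, SE 0.12, adjusted p = 8.75e-43), and Irgm1 and Irgm2, which regulate the other IRGs, had a log2FC of 4.52 and 4.90. Gbp7 and Gbp3 had a log2FC of 4.89 and 4.63.

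For some members the untreated level was at the limit of detection. Tgtp2 had 2 counts over the 4 untreated wells together and 40 to 58 counts in each IFN-γ well, a ratio of 105 with a 95% counting interval of 28.6 to 872. Tgtp1 had 1 count untreated and 22 to 39 with IFN-γ, a ratio of 124 (21.9 to 4950). These intervals are exact conditional ones and cover counting error only. Gbp6 and Gbp4 had at most 3 counts in any untreated well and were at least 11.7-fold and 4.64-fold higher against a floor of 3 counts per untreated well. With the members at this floor (3 IRG and 2 GBP genes) set to their bound, the median log2FC was 4.52 for the IRG list and 4.63 for the GBP list. Tgtp1 and Tgtp2 are near-identical copies, and GBP genes share long stretches, so that the split of reads between them is uncertain. Of the listed GBP genes in the table, 4 had too few counts for edgeR's test. Among these, Gbp5 had at most 2 counts in an untreated well and 6 to 17 with IFN-γ. DESeq2's Wald test, run without the same filter, called Gbp5 and Gbp9 higher (adjusted p = 0.00188 and 0.0399).

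Genes outside the lists were also at the top of the response. Apol6 (ENSMUSG00000033576), an apolipoprotein L gene, had 1 count over all untreated wells and 30 to 64 counts in each IFN-γ well, a ratio of 193 with a 95% counting interval of 34.3 to 7681. Gm12185 had 3 counts untreated and 26 to 49 with IFN-γ, a ratio of 50.8 (17.03 to 249). Il15ra, the receptor chain that presents IL-15 to lymphocytes, had 3 counts untreated and 16 to 34 with IFN-γ, a ratio of 35.3 (11.7 to 174). Ifi47, a further GTPase of the IRG family that the list did not hold, rose from 11.99 ± 3.12 to 526 ± 8.78 CPM (log2FC of 5.42, SE 0.13, adjusted p = 6.32e-40).

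Most genes for antigen presentation on MHC class I rose, by steps of different size: Nlrc5, both transporter subunits and the immunoproteasome subunits rose between 9.96-fold and 17.1-fold in the mean, and the classical molecules H2-K1, H2-D1 and B2m between 1.60-fold and 1.77-fold. All 8 tested genes of the class I list were called higher (median log2FC 1.95). Of 14 genes for peptide processing 10 were (median 1.90), compared to 4.29% of all genes tested. H2-Q4, H2-M3 and Nlrc5, among the 8, passed the filter on low counts through wells with IFN-γ, so that the filter had a part in this count. Nlrc5, the transactivator of class I genes, stood at 6.13, 6.71, 6.57 and 6.996 CPM in the untreated wells and at 86.4, 82.99, 76.6 and 76.8 CPM with IFN-γ, a log2FC of 3.59 (SE 0.20, adjusted p = 6.41e-22). Tap1, a subunit of the peptide transporter, stood at 20.1, 23.01, 24.1 and 25.98 CPM in the untreated wells and at 275, 296, 261 and 313 CPM with IFN-γ. Its partner Tap2 rose from 8.15 ± 2.99 to 101 ± 13.6 CPM, and both had a log2FC near 3.6 (3.63 for Tap1, 3.60 for Tap2).

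The catalytic subunits of the immunoproteasome, which replace those of the standard proteasome, rose together. Psmb9 stood at 14.01, 6.71, 6.57 and 7.995 CPM in the untreated wells and at 163, 159, 150.3 and 131 CPM with IFN-γ (log2FC of 4.04, SE 0.18, adjusted p = 5.39e-27), Psmb8 rose from 12.9 ± 4.59 to 147 ± 13.2 CPM (log2FC of 3.49, SE 0.17, adjusted p = 3.00e-25) and Psmb10 from 38.3 ± 1.45 to 382 ± 10.98 CPM (log2FC of 3.31, SE 0.10, adjusted p = 3.99e-35). The tapasin relative Tapbpl had a log2FC of 3.37, and the proteasome activators Psme2 and Psme1 had 1.97 and 1.42. The general chaperones Calr, Canx and Pdia3 and the peptidase Lnpep were not called, with log2FC from -0.06 to 0.14.

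The heavy chains H2-K1 and H2-D1 and their light chain changed less. B2m (ENSMUSG00000060802), the light chain, stood at 2594, 2622, 2608 and 2684 CPM in the untreated wells and at 4404, 4221, 4105 and 4220.4 CPM with IFN-γ. The groups did not overlap, and the step was small (log2FC of 0.69, SE 0.05, adjusted p = 1.06e-17). H2-K1 rose from 223 ± 10.4 to 396 ± 14.5 CPM (log2FC of 0.82, SE 0.08, adjusted p = 6.00e-13) and H2-D1 from 272 ± 6.003 to 434 ± 31.2 CPM (log2FC of 0.68, SE 0.07, adjusted p = 6.09e-11). The nonclassical H2-T23, which encodes the ligand of an inhibitory receptor on natural killer cells, rose further, from 20.3 ± 0.824 to 132 ± 14.6 CPM (log2FC of 2.69, SE 0.15, adjusted p = 2.44e-22). H2-M3 had a log2FC of 2.04, and H2-Q4, with 3 counts over the untreated wells and 13 to 18 in each IFN-γ well, had a ratio of 21.97 (7.17 to 109). Reads of H2 genes can be shared between members, so that their split is uncertain.

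Of 5 tested MHC class II genes 0 were called by edgeR, which is near the background with 5.06% of all genes called, 0 had an unadjusted p under 0.05 and 0 were called by DESeq2, and their log2FC ran from -0.16 to 0.35 with a median of 0.00. Ciita, the transactivator of class II genes, was too rare for that test. It had 0, 0, 1 and 0 counts in the untreated wells and 3, 4, 4 and 4 with IFN-γ, a separation without overlap that DESeq2's Wald test, run without the same filter, called (adjusted p = 0.0497).

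Of 6 tested chemokine genes 3 were called higher and the others were not called, with a median log2FC of 1.13. For all genes tested the share called higher was 4.29%. Cxcl10 (ENSMUSG00000034855), a ligand of the chemokine receptor Cxcr3 on T cells, stood at 43.8, 43.1, 43.8 and 44.97 CPM in the untreated wells and at 246, 221, 236 and 267 CPM with IFN-γ (log2FC of 2.46, SE 0.12, adjusted p = 2.25e-25). Cxcl9, a ligand of the same receptor, stood at 35.9, 46.03, 44.9 and 41.97 CPM in the untreated wells and at 59.2, 47.2, 45.7 and 37.9 CPM with IFN-γ. The treated wells of Cxcl10 were far above the untreated ones, whereas those of Cxcl9 overlapped them (log2FC of 0.16, SE 0.16, adjusted p = 0.779). The third ligand, Cxcl11, had 0 counts in all 8 wells. Ccl2, which attracts monocytes, rose from 78.2 ± 3.88 to 317 ± 17.5 CPM (log2FC of 2.02, SE 0.09, adjusted p = 1.95e-26), and Cx3cl1, a membrane-bound chemokine, from 27.3 ± 8.68 to 161 ± 25.04 CPM (log2FC of 2.56, SE 0.15, adjusted p = 7.53e-21). Ccl5 had overlapping wells (log2FC of 0.24, SE 0.15, adjusted p = 0.5497).

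Among 8 tested cytokine genes and decoys, 4 were called higher and the others were not called, with a median log2FC of 0.71. Called higher among all genes tested were 4.29%. Il18bp and Il15 passed the filter on low counts through wells with IFN-γ, so that the filter had a part in this count. Il18bp, a secreted decoy that neutralizes IL-18, stood at 1.75, 2.88, 0 and 3.998 CPM in the untreated wells and at 75.3, 71.6, 73.7 and 73.3 CPM with IFN-γ, and the treated wells lay within 4 CPM of each other (log2FC of 4.99, SE 0.28, adjusted p = 1.42e-22). Il15, which sustains natural killer and memory T cells, was counted 1 to 3 times per untreated well and 8 to 26 times per IFN-γ well, at least 5.36-fold higher against the floor of 3 counts per well (adjusted p = 8.42e-07). Csf1, the growth factor of macrophages, rose from 102 ± 2.25 to 179.7 ± 19.4 CPM (log2FC of 0.83, SE 0.10, adjusted p = 1.89e-09). Il18 itself rose from 6.15 ± 2.900 to 14.9 ± 3.72 CPM (log2FC of 1.21, SE 0.36, adjusted p = 0.0315), a call that was lost in DESeq2's Wald test (adjusted p = 0.125) and in 5 of 8 fits that each left out 1 well (untreated replicates 1 to 3 and IFN-γ replicates 1 and 3, adjusted p up to 0.175). Il33, an alarmin, had means of 213 ± 18.1 CPM untreated and 206 ± 16.2 CPM with IFN-γ, with overlapping wells (log2FC of -0.06, SE 0.09, adjusted p = 0.855). Tnfsf10 (TRAIL), untested by edgeR, had 0 counts in every untreated well and 4 to 6 with IFN-γ, with an adjusted p of 0.00137 in DESeq2's Wald test.

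Of 10 tested checkpoint ligands, 2 were called higher, compared to 4.29% of all genes tested. The list had a median log2FC of 0.09, and Cd274 passed the filter on low counts through wells with IFN-γ. Cd274 (ENSMUSG00000016496), which encodes PD-L1, stood at 7.88, 4.79, 5.47 and 2.998 CPM in the untreated wells and at 96.2, 113, 115 and 92.3 CPM with IFN-γ. The highest untreated well was below the lowest treated well by over 10-fold (log2FC of 4.24, SE 0.21, adjusted p = 8.40e-25). Cd47, which signals to macrophages not to engulf the cell, rose from 159 ± 21.6 to 262 ± 31.5 CPM (log2FC of 0.72, SE 0.10, adjusted p = 4.84e-08). Pdcd1lg2, which encodes PD-L2, had means of 12.5 ± 0.487 CPM untreated and 10.6 ± 4.95 CPM with IFN-γ, with overlapping wells (log2FC of -0.30, SE 0.32, adjusted p = 0.7799). Ido1, a tryptophan-degrading enzyme, had 0 to 1 counts in untreated wells and 0 to 3 with IFN-γ, too few to be tested.

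**Figure D4:**
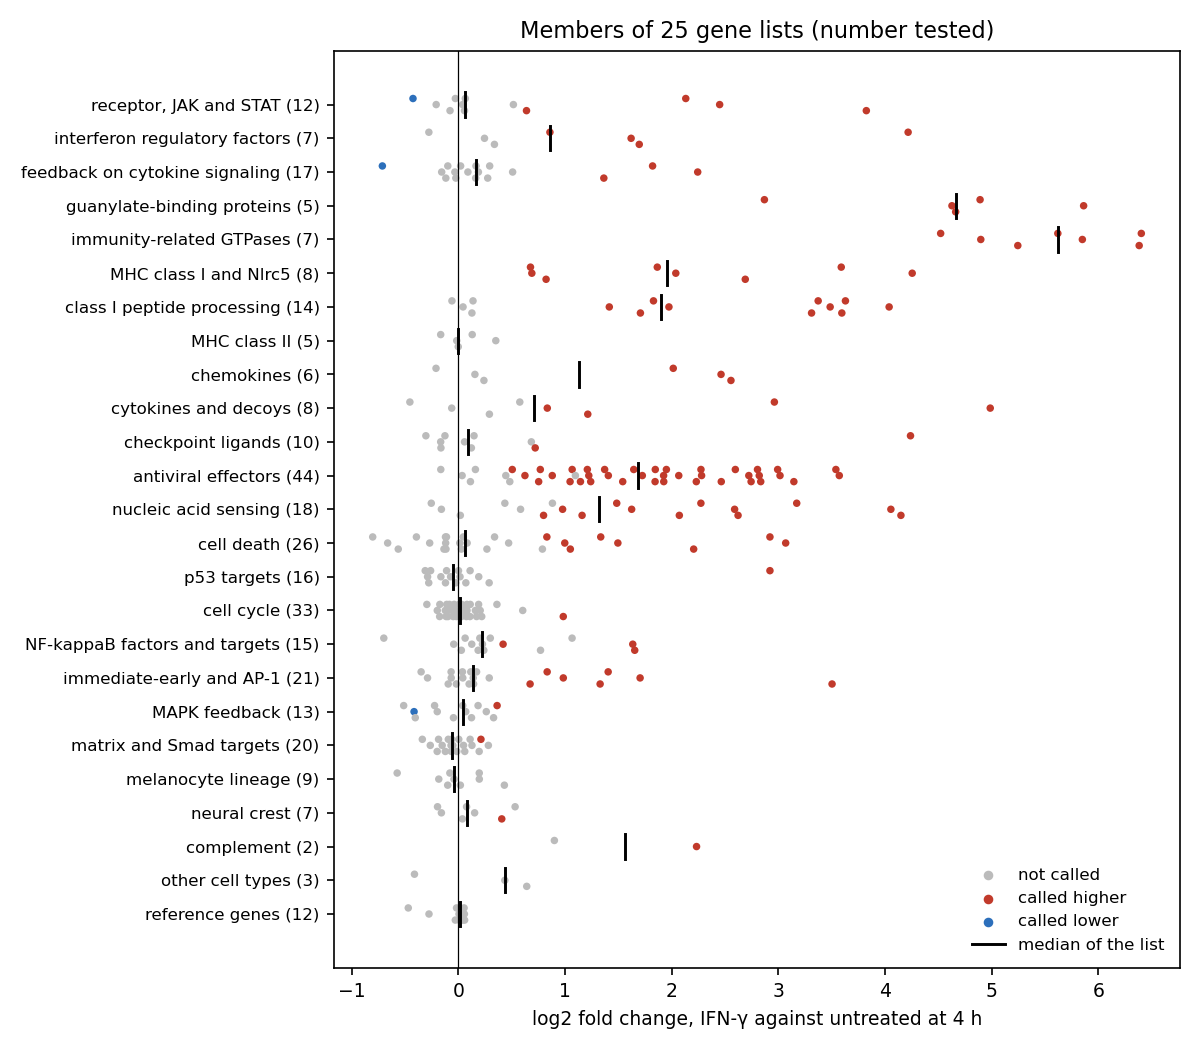
Each point is a tested member of 1 of 25 gene lists, placed by its log2 fold change with IFN-γ at 4 hrs (x axis), red where called higher, blue where called lower and grey otherwise, and the black bar is the median of the list. The medians of the GBP and IRG lists lie at 4.66 and 5.62, those of the class I lists near 2, and those of the cell cycle, p53, melanocyte and reference lists near 0.

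Antiviral effector genes, many of them named for type I interferon, were raised broadly: 37 of 44 tested were called higher, with a median log2FC of 1.69. Among all genes tested the share called higher was 4.29%. Low-count members such as Trim21, Uba7 and Sp110 passed the filter on low counts through wells with IFN-γ, so that the filter had a part in this count. Trim21, a receptor for antibody-bound virus in the cytosol, stood at 5.26, 3.84, 3.28 and 2.998 CPM in the untreated wells and at 46.9, 49.8, 48.6 and 45.7 CPM with IFN-γ (log2FC of 3.57, SE 0.27, adjusted p = 1.44e-16). The ADP-ribosyltransferases Parp14 and Parp9 and the ubiquitin ligase Dtx3l, the partner of Parp9, had a log2FC of 3.54, 3.15 and 3.02. Classical members such as Oasl2, Isg15, Ifit3 and Ifit1 had 2.84, 1.73, 1.93 and 0.88. Rsad2 and Oasl1 were not called (0.16 and -0.16), and Mx1 and Mx2 had at most 11 counts in any of the 8 wells and were not tested. Reads of the Oas1 genes and of Ifit3 and Ifit3b can be shared between copies.

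Of 18 tested genes for the sensing of nucleic acids, 12 were called higher, compared to 4.29% of all genes tested. Their median log2FC was 1.32. Zbp1 and Ifi205 passed the filter on low counts through wells with IFN-γ, so that the filter had a part in this count. Zbp1, a sensor of Z-form nucleic acid that can start necroptosis, stood at 3.504, 5.75, 8.76 and 5.996 CPM in the untreated wells and at 109.8, 107, 113 and 97.4 CPM with IFN-γ (log2FC of 4.15, SE 0.20, adjusted p = 3.93e-25). The Ifi200 family, which includes DNA-binding proteins, was represented by Ifi203 (log2FC 4.06), Mndal (3.17) and Ifi205 (2.62). Tmem173, the symbol under which STING is listed here, stood at 57.8, 70.96, 70.05 and 52.97 CPM in the untreated wells and at 109.8, 144, 149 and 155 CPM with IFN-γ. Every treated well was above every untreated well, a rise of 2.22-fold in the mean (log2FC of 1.16, SE 0.13, adjusted p = 6.83e-11). Cgas, the enzyme that makes the STING ligand, had means of 14.4 ± 3.07 CPM untreated and 20.2 ± 5.83 CPM with IFN-γ, with overlapping wells (log2FC of 0.44, SE 0.26, adjusted p = 0.493), and the adaptor Mavs was not called (-0.16).

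Genes for cell death rose in part. Of 26 tested, 8 were called higher and the others were not called, and the median log2FC of the 26 was 0.07. By comparison, 4.29% of all genes tested were called higher. Casp4, Fas and Bid passed the filter on low counts through wells with IFN-γ, so that the filter had a part in this count. Casp4, the receptor caspase of noncanonical pyroptosis, rose from 3.33 ± 2.14 to 29.6 ± 3.98 CPM (log2FC of 3.07, SE 0.33, adjusted p = 5.41e-11) and Casp12 from 13.7 ± 1.095 to 63.2 ± 13.9 CPM (log2FC of 2.21, SE 0.19, adjusted p = 4.73e-14). Fas, a death receptor, was counted 0 to 3 times per untreated well and 4 to 13 times per IFN-γ well, at least 2.88-fold higher against the floor of 3 counts per well (adjusted p = 0.00218). Bid, which links death receptors to mitochondria, rose from 6.72 ± 2.02 to 19.4 ± 7.11 CPM (log2FC of 1.496, SE 0.33, adjusted p = 0.000935). Mlkl, the executor of necroptosis, and the kinase Ripk1 had a log2FC of 1.34 and 1.00. Of the mitochondrial genes, Bak1 was called higher (0.83), and Bax and Mcl1 were not called, each with -0.12.

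Proliferation genes and p53 targets were near the background, with 5.06% of all genes tested called. Of 33 tested cell cycle genes 1 was called, with a list median of 0.01. Of 16 p53 targets 1 was called, which was Fas, with a median of -0.05. Single calls so near the background describe those genes and not the lists. Cdk6, a G1 kinase, was the called cell cycle gene and rose from 94.1 ± 13.9 to 186 ± 16.5 CPM (log2FC of 0.98, SE 0.11, adjusted p = 5.46e-11). Ccnd1, its cyclin partner, stood at 1636, 1625, 1636 and 1649.99 CPM in the untreated wells and at 1659.6, 1737, 1652 and 1871 CPM with IFN-γ. Its treated wells were all just above the untreated ones, and the test did not call it (log2FC of 0.08, SE 0.06, adjusted p = 0.5998). Cdkn1a (p21) stood at 147, 148, 148 and 176 CPM in the untreated wells and at 132, 150.2, 115 and 116 CPM with IFN-γ, with overlapping wells (log2FC of -0.26, SE 0.11, adjusted p = 0.222), and Myc had means of 225 ± 25.9 CPM untreated and 214 ± 24.4 CPM with IFN-γ (log2FC of -0.07, SE 0.09, adjusted p = 0.849).

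Signaling genes outside the JAK-STAT pathway were called in part. Of 21 immediate-early and AP-1 genes 7 were called higher, led by Batf2, an interferon-inducible AP-1 factor, which rose from 4.97 ± 1.26 to 55.8 ± 9.15 CPM (log2FC of 3.50, SE 0.25, adjusted p = 2.03e-17), and by Bcl6, Atf3 and Cebpd with 1.70, 1.41 and 1.33. Batf2 and Bcl6 passed the filter on low counts through wells with IFN-γ. Atf3, with 3 to 7 counts per untreated well, was not called by edgeR with Activin-A present (0.14, adjusted p = 0.896) or at 12 hrs (0.76, adjusted p = 0.144). Egr1 and Jun were not called, with log2FC of 0.04 and 0.17. Of 15 NF-κB factors and targets 3 were called higher: Ripk2, a kinase of bacterial sensing, with 1.64, Bcl3, an atypical IκB, with 1.65, and Vcam1, an adhesion molecule, with 0.42. The call on Bcl3 was lost in DESeq2's Wald test (adjusted p = 0.106) and without untreated replicate 2 or 4 or IFN-γ replicate 4 (up to 0.122), and that on Vcam1 without untreated replicate 2 (0.0608). Nfkbia, a feedback gene of NF-κB, was not called (0.20). Of 13 MAPK feedback genes Dusp6 was called higher (0.36) and Spry4 lower (-0.41), and of 20 matrix and Smad target genes Thbs1 was called higher (0.21). Of all genes tested 4.29% were called higher and 0.766% lower, and single calls in lists of this size describe those genes and not the lists. The calls on Spry4 and Thbs1 were not made by DESeq2's Wald test (adjusted p = 0.154 and 0.0951) and were lost in 7 and 5 of 8 fits that each left out 1 well (adjusted p up to 0.147 and 0.225). Serping1, an inhibitor of complement C1, rose from 17.3 ± 5.36 to 81.97 ± 8.003 CPM (log2FC of 2.23, SE 0.20, adjusted p = 7.86e-14).

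Of 9 tested markers of the melanocyte lineage, 0 were called by edgeR or by DESeq2 and 0 had an unadjusted p under 0.05, with a median log2FC of -0.04. With 5.06% of all genes called, a count of 0 in a list of this size is near the background. Dct, a melanin enzyme, had overlapping wells and means of 72.5 ± 13.02 CPM untreated and 73.98 ± 4.89 CPM with IFN-γ (log2FC of 0.02, SE 0.13, adjusted p = 0.975), and Mitf, the lineage factor, was low in all wells, at 10.2 ± 2.77 CPM untreated and 6.67 ± 3.16 CPM with IFN-γ (log2FC of -0.57, SE 0.40, adjusted p = 0.599). Of 7 neural crest genes Aqp1, a water channel, was called higher, from 424 ± 20.5 to 563 ± 41.8 CPM (log2FC of 0.41, SE 0.09, adjusted p = 0.000787). Of 12 reference genes 0 were called by edgeR or by DESeq2 and 1 had an unadjusted p under 0.05.

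The genes that fell did so by little, and of the 70 only Ifngr2, Socs2 and Spry4 belong to the lists above. Hes1 (ENSMUSG00000022528), a repressor downstream of Notch, stood at 72.7, 84.4, 75.5 and 69.96 CPM in the untreated wells and at 35.8, 39.3, 44.2 and 35.4 CPM with IFN-γ. The groups were separate by a wide margin (log2FC of -0.98, SE 0.16, adjusted p = 6.00e-06). Slc22a23, a transporter of the organic ion family, fell from 91.4 ± 6.79 to 52.8 ± 8.41 CPM (log2FC of -0.81, SE 0.13, adjusted p = 5.82e-06). Nefl (ENSMUSG00000022055), the light chain of neurofilaments, stood at 676, 733, 674 and 701 CPM in the untreated wells and at 439, 481, 488 and 488 CPM with IFN-γ. It had the most counts of these 3 genes, and its wells did not overlap (log2FC of -0.55, SE 0.07, adjusted p = 2.05e-09).

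Lower-count genes among the 12 that fell furthest had wider errors. Notum, an enzyme that inactivates Wnt proteins, fell from 16.9 ± 1.71 to 8.300 ± 2.103 CPM (log2FC of -1.07, SE 0.31, adjusted p = 0.0252). Cd248, a surface glycoprotein of mesenchymal cells, fell from 24.2 ± 5.22 to 12.3 ± 4.13 CPM (log2FC of -0.89, SE 0.27, adjusted p = 0.03198), and Hilpda, a lipid droplet protein induced by hypoxia, from 33.7 ± 7.19 to 18.8 ± 5.38 CPM (log2FC of -0.81, SE 0.22, adjusted p = 0.0115). Dctd, a deaminase of nucleotide metabolism, and Fam198b had a log2FC of -0.73 and -0.72 with adjusted p of 0.000403 and 0.000221. Agfg2, Tmem119, Abi2, Nsmaf and Ttc27 had log2FC between -0.84 and -0.71. DESeq2's Wald test called 5 of the 12 (Hes1, Slc22a23, Nsmaf, Dctd and Fam198b). Of the other 7, Agfg2 lost its call when untreated replicate 1 was left out, and Hilpda, Notum, Abi2, Tmem119, Cd248 and Ttc27 in 3 to 6 of 8 such fits each, each of them without untreated replicate 2 among others, with adjusted p up to 0.200. Among abundant genes, Igfbp3, which binds insulin-like growth factors, stood at 2899, 3171, 3200.4 and 3128 CPM in the untreated wells and at 2627, 2763, 2809.98 and 2613 CPM with IFN-γ. Its change was small and its wells separate (log2FC of -0.20, SE 0.05, adjusted p = 0.00985). Dmp1, an acidic matrix phosphoprotein, fell from 184 ± 11.4 to 137 ± 16.7 CPM (log2FC of -0.44, SE 0.10, adjusted p = 0.00255).

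The same contrast could be read a second time between other wells, those with Activin-A at 4 hrs, with IFN-γ (n = 4) against without (n = 4). These wells shared the fit of the main comparison, with its filter and its estimate of the spread, but not its group means. There 6.07% of genes tested were called: 403 higher (4.41%) and 152 lower (1.66%). Of the 392 genes called higher without Activin-A, 384 had the same sign with it and 314 were called higher again, and of the 70 called lower, 65 had the same sign and 36 were called lower again. The median log2FC of the 392 genes was 0.86 in these wells and that of the 70 genes -0.33. Their values of 1.01 and -0.49 without Activin-A come from the wells that chose the genes. Irf1, Cd274 and Tap1 had a log2FC of 4.40, 4.45 and 3.61 with Activin-A, and H2-K1 and B2m of 0.90 and 0.67. Of the genes lowered by IFN-γ, Hes1 and Nefl were called lower in these wells too (-0.69 and -0.43), while Notum, with 8.56 ± 3.65 CPM in wells with Activin-A alone, was not (-0.13, adjusted p = 0.916). Among the others that fell furthest, Cd248 and Slc22a23 were called lower again (-0.81 and -0.59). Agfg2, Dctd, Fam198b, Nsmaf and Tmem119 were not called (log2FC from -0.60 to -0.16), nor were Hilpda and Abi2 (0.25 and 0.16).

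The difference between the IFN-γ effects with and without Activin-A was itself tested. At an adjusted p under 0.05 edgeR called 0 genes (0%), with 505 at an unadjusted p under 0.05 and a smallest adjusted p of 0.278, and DESeq2's Wald test also called 0, with 277 at an unadjusted p under 0.05. This does not show that the effects are alike. Without replicate 1 of the Activin-A wells at 4 hrs, whose chi-squared per gene against the other 3 was 2.60 to 3.07 compared to at most 1.59 in any other pair of wells of a group at 4 hrs, edgeR called 1 gene for the difference, 515 genes for IFN-γ in the presence of Activin-A, and 309 genes higher in both contrasts.

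At 12 hrs, in other wells, most of the genes that rose at 4 hrs were still high. In the fit of all 32 wells, 8.54% of 9332 genes were called at 12 hrs, 572 of them higher (6.13%) and 225 lower (2.41%). Of 391 genes called higher at 4 hrs and tested there, 335 were called higher, and of the 70 called lower, 29 were called lower. The others were not called. Irf1, Socs1 and Cd274 had a log2FC of 3.96, 2.22 and 4.56 at 12 hrs, and their differences from 4 hrs, between -0.24 and 0.33, were not called.

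A test of the difference between the times called 54 of 9332 genes (0.579%), 41 with a larger value at 12 hrs (0.439%) and 13 with a smaller one (0.139%), a count that ran from 5 to 15 when 1 well was left out and lay at 5 to 8 without untreated replicate 4 or IFN-γ replicate 1 or 2 of 4 hrs, or untreated replicate 2 or IFN-γ replicate 1 or 2 of 12 hrs. Among the genes called higher at 4 hrs, 27 had a larger effect at 12 hrs and 1, Irgm1, a smaller one. The classical class I molecules were among those that went on rising. H2-K1 reached 1187 ± 79.8 CPM at 12 hrs (log2FC 2.59, against 0.82 at 4 hrs), a difference of 1.78 (SE 0.10, adjusted p = 2.98e-25). H2-D1 differed by 1.36 (SE 0.10, adjusted p = 1.99e-18), B2m by 0.75 (SE 0.07, adjusted p = 7.72e-15) and H2-T23 by 1.89 (SE 0.24, adjusted p = 2.17e-08). With H2-T22, 5 of the 8 class I genes were called in this test and 4 of the 14 processing genes (Psme1, Psme2, Tapbp and Erap1). For Nlrc5, Tap1 and Psmb9 the test did not call the difference (0.46, 0.59 and 1.15, adjusted p = 0.889, 0.430 and 0.196).

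Other genes with a larger effect at 12 hrs were Serping1 by 2.12 (SE 0.32, adjusted p = 1.91e-06), the surface antigen Ly6a by 1.67 (SE 0.18, adjusted p = 1.10e-11), Ccl2 by 1.49 (SE 0.16, adjusted p = 1.32e-11) and Gbp3 by 1.42 (SE 0.26, adjusted p = 0.000292). Ly6a (Sca-1) had already risen at 4 hrs from 43.2 ± 2.36 to 427 ± 21.1 CPM, and its relative Ly6c1 from 5.59 ± 3.05 to 65.03 ± 12.7 CPM. Gbp2 differed by 0.61 (SE 0.13, adjusted p = 0.00526), a call lost without untreated replicate 2 or 3 of 12 hrs (0.51 in both, adjusted p up to 0.0785). Ly6c1 differed by 2.06 (SE 0.48, adjusted p = 0.0123), a call lost without untreated replicate 4 of 4 hrs (1.65, adjusted p = 0.322) or replicate 2 of 12 hrs (1.90, 0.0589). The difference of Irgm1 was -0.55 (SE 0.14, adjusted p = 0.0493) and that of Cdkn1a 0.59 (SE 0.15, adjusted p = 0.04195). These calls were lost in 13 and 12 of 16 fits that each left out 1 well, with values from -0.68 to -0.43 and from 0.52 to 0.69. Nefl, Dmp1 and Igfbp3 fell further by 12 hrs, with differences of -0.56, -0.75 and -0.35 (adjusted p = 2.21e-05, 0.0224 and 0.00371), and the call on Dmp1 was lost without untreated replicate 4 or IFN-γ replicate 1 of 4 hrs or replicate 2 of either group of 12 hrs (-0.71 to -0.65, adjusted p up to 0.137). The difference for Grem1, an inhibitor of BMP proteins that was called lower at 4 hrs (-0.37), was 0.40 (adjusted p = 0.0409).

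**Figure D5:**
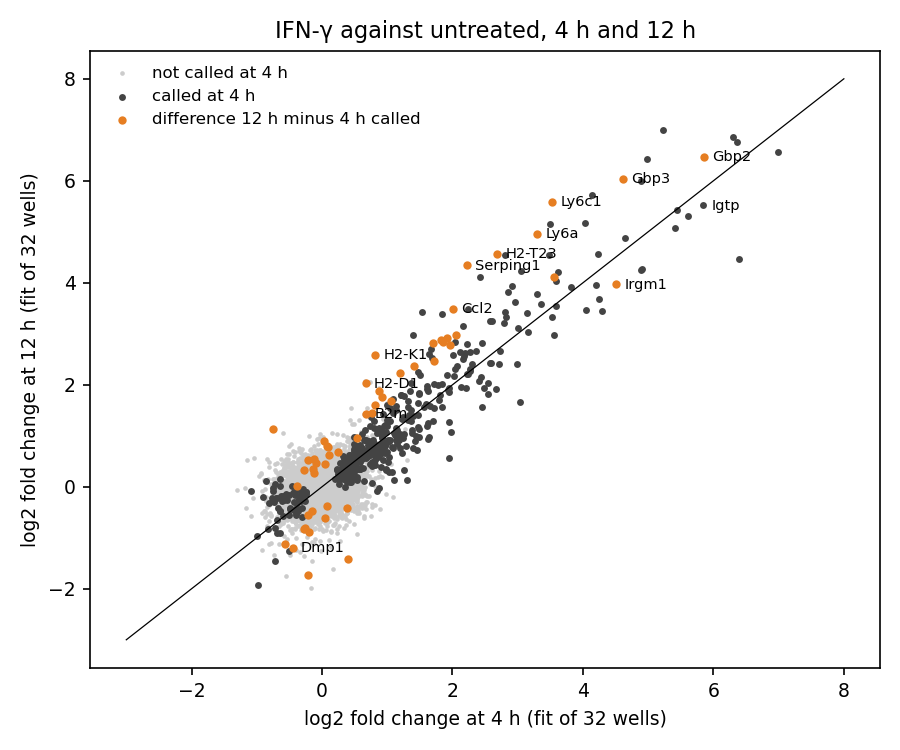
Points are genes, placed by their log2 fold change with IFN-γ at 4 hrs (x axis) and at 12 hrs (y axis) in the fit of 32 wells, dark where called at 4 hrs and orange where the difference between the times was called. The line marks equal effects, and H2-K1, H2-D1, H2-T23, Ly6a, Ly6c1 and Serping1 lie above it.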

How the data were processed

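RNA of the 32 wells was measured by BRB-seq, and the authors deposited raw counts per gene for 12451 genes, a table that holds no gene with counts in fewer than 4 samples. Their processing notes name STAR 2.7.10b, featureCounts, DESeq2 1.36.0 and the GRCm39 build. The gene annotation and the handling of unique molecular identifiers are not given in the sources used here, and counts were used as they stand. Symbols for 12437 genes came from GENCODE M21.

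The 4 h wells (n = 4 per group) were fitted together with edgeR 4.0.16 in R 4.3.3 (filterByExpr, TMM, quasi-likelihood test, Benjamini-Hochberg adjustment, adjusted p under 0.05), which left 9137 genes. Time differences used all 32 wells. CPM are TMM-normalized. Wells of a group differed by more than counting noise (chi-squared per gene 1.19 to 1.59 among the 8 wells). The fit was first tested on simulated data. Alternatives were DESeq2 1.42.0, RLE size factors, other filters, fits and thresholds, the replicate number as a block, and each well left out.

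Named genes were the 12 highest and 12 lowest called genes with a mean of at least 10 counts and wells that do not overlap, up to 4 called members per list, a set of pathway genes, and the called genes whose effect changed most by 12 h. Further genes were named with their values known, and some genes are not reported here. The comparison, the gene lists and these rules were chosen with earlier results of these data known.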

Additional observations from a re-analysis of the deposited data

Results flagged for a closer look

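In 9 of 210 sets of 4 wells (105 genes in 2 groups) 1 well lay apart from the other 3, by Dixon's ratio of gap to range at its 95% critical value, where chance gives about 1 set in 20, or 10.5. In untreated wells these were Socs3 at 44.7 CPM in replicate 1 (others 32.6 to 34.0), Csf1 at 98.5 CPM in replicate 3 (others 103), Cdkn1a at 176 CPM in replicate 4 (others 147 to 148) and Abi2 at 38.4 CPM in replicate 2 (others 27.2 to 28.5). Also in untreated wells, Tgtp1 at 0.959 CPM and Tgtp2 at 1.92 CPM in replicate 2 and Apol6 at 0.876 CPM in replicate 1 stood against 0 in the other wells. With IFN-γ these were Parp14 at 114 CPM in replicate 2 (others 81.0 to 86.4) and Nefl at 439 CPM in replicate 1 (others 481 to 488).

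The effect of IFN-γ differed between 12 hrs and 4 hrs by edgeR's test of the difference for 25 of the genes named. The log2FC at 12 hrs was larger by 0.61 in Gbp2, 1.42 in Gbp3, 1.78 in H2-K1, 1.36 in H2-D1, 1.89 in H2-T23, 0.75 in B2m, 1.49 in Ccl2, 2.12 in Serping1, 1.67 in Ly6a and 2.06 in Ly6c1, and by 0.99 in H2-T22, 0.97 in Psme1, 0.81 in Psme2, 1.06 in Tapbp, 1.12 in Erap1, 0.76 in Isg15, 1.00 in Ifit1 and 1.01 in Ifit3. In Grem1, called lower at 4 hrs, the difference was 0.40. In Cdkn1a the difference was 0.59, from -0.26 at 4 hrs to 0.33 at 12 hrs. It was -0.55 in Irgm1, -0.56 in Nefl, -0.75 in Dmp1, -0.35 in Igfbp3 and -0.31 in Sparc.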

How the results depend on the processing

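With DESeq2's Wald test 372 of 11961 genes were called, 332 higher and 40 lower, and 359 of them were among the 462. With at least 10 counts in every sample, 252 genes were called higher, 78 by at least 2-fold, and 197 were called higher with and without Activin-A. An adjusted p under 0.01 left 31 genes lower and an absolute log2FC of at least 0.5 left 33. The share of calls that were higher lay between 80.3% and 91.3% over all settings. Pearson's r between untreated and IFN-γ wells was 0.006 to 0.027 for the same replicate number and -0.038 to 0.041 for different numbers. These values show no pairing by number but cannot exclude one, because each summarizes all genes at once. With the replicate number as a block, 384 genes were called higher and 61 lower, and 442 of these 445 were among the 462. The block ended the calls on Socs2, Spry4, Thbs1 and Ttc27 (adjusted p from 0.0502 to 0.0597) and on the time difference of Irgm1 (0.0537), and no other call among the 105 genes for which this was computed. With 1 well left out, 355 to 377 genes were higher, 52 to 64 lower and 192 to 207 changed by at least 2-fold. Called with Activin-A were 462 to 559, higher in both contrasts 290 to 309, and different between them 0 to 1. The difference of 12 hrs minus 4 hrs was called negative in 5 to 15 genes, compared to 13, and positive in 29 to 41. Without a filter on low counts, 1 gene was called for the difference with Activin-A. DESeq2 called 0 genes lower among receptor, JAK and STAT, feedback and MAPK feedback genes, where edgeR called 1 in each, 1 MHC class II gene higher (Ciita), and 0 matrix genes higher and 1 lower (Sparc). RLE size factors gave 1 reference gene lower. In the 250 bases before the start alone, 6.90% of tested genes held the GAS core and 3.23% the ISRE core. Among genes called higher these shares were 13.8% and 16.7%, and among those higher by at least 2-fold 15.8% and 26.3%. The log2FC of genes near 0 changed sign when a well was left out, in Jak1 between -0.12 and 0.068, in Ifngr1 between -0.083 and 0.12 and in Dct between -0.087 and 0.10, and the cause was not tested. At this depth, genes near 3 counts per well cannot be ranked.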
